A study of Mus musculus with 6 samples.

Results

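Keratins are the intermediate filament proteins of epithelial cells. A filament is built from a type I and a type II keratin in equal parts, and partners are made together in a given epithelium, for example Krt8 with Krt18 in simple epithelia, Krt5 with Krt14 in the basal layer of stratified epithelia and Krt1 with Krt10 in the layers above it. Hair, nail and root sheath keratins belong to the skin appendages. Fibroblasts are mesenchymal cells whose main cytoplasmic intermediate filament is vimentin, so keratin genes are largely silent in them.

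The family was taken as all probes whose gene symbol in the platform annotation is Krt followed by a number and at most 1 letter, which left out the keratin-associated proteins. This gave 66 probes for 49 genes, of 45281 probes for 19057 genes on the array. RNA came from mouse embryonic fibroblasts (MEFs), and each array is an Illumina BeadChip, a single-colour expression array with an intensity and a detection p-value for every probe. The groups were Dnmt1+/+ MEFs and Dnmt1-/- MEFs, with 3 arrays in each. Dnmt1 encodes the maintenance DNA methyltransferase, and the study asked how loss of DNA methylation alters gene regulation in somatic cells. Both groups were also Trp53-/-, per the genotype labels, and the study describes the Dnmt1-/- MEFs as homozygous for a Dnmt1 allele of reduced function. The background strain is given as unknown and no age is given. No source used here names more than 1 line of cells per genotype, and an effect of the genotype cannot be told apart from one of the line. Nor do the labels say that replicates were separate cultures, and the p-values then reflect only the spread of these 3 samples a group, possibly a technical one.

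The normalized log2 level of the Dnmt1 probe was 9.65 ± 0.20 in Dnmt1+/+ MEFs and 7.55 ± 0.56 in Dnmt1-/- MEFs (SD, n = 3), a 4.31-fold fall (limma, adjusted p = 0.00193). Between 14699 and 16499 probes per array were above background, meaning a detection p under 0.01, and mean raw intensities ran from 326 to 357 on the Dnmt1+/+ arrays and from 217 to 397 on the Dnmt1-/- arrays. Col1a1, the collagen I chain of fibroblasts, and Vim were above background on all 6 arrays, and Cdh1 and Epcam, which hold epithelial cells together, on 0. RNA of such bulk cultures does not tell a change in the number of cells that make a transcript from a change in transcript per cell.

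DNA methyltransferases act on CG dinucleotides, so the CG positions upstream of the keratin genes above background on any array are shown where the RefSeq promoter table (assembly GRCm38.p6) held the gene. Each run gives the 250 bases before the annotated start, 5′ to 3′ on the minus strand, with every CG in capitals. They lie at chr11:99389365-99389614 for Krt10, chr11:100121567-100121816 for Krt13 (the outer of its 2 starts), chr11:100206031-100206280 for Krt14 and chr15:102004343-102004592 for Krt8. The RefSeq spans of Krt10 and Krt14 reach further upstream than these starts, so both windows lie within their genes.

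Krt10: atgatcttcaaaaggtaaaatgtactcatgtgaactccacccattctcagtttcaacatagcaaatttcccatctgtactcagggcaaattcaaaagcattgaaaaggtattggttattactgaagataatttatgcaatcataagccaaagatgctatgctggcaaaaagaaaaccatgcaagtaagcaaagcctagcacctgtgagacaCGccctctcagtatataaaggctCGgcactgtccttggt
Krt13: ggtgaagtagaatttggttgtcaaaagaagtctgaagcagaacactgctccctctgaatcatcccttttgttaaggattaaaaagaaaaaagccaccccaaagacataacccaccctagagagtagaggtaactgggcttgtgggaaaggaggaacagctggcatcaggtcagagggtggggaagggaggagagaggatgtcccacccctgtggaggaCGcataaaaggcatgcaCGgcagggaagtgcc
Krt14: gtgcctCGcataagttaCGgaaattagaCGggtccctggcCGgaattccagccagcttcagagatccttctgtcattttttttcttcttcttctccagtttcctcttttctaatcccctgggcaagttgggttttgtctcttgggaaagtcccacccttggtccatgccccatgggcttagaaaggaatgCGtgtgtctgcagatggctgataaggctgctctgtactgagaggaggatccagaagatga
Krt8: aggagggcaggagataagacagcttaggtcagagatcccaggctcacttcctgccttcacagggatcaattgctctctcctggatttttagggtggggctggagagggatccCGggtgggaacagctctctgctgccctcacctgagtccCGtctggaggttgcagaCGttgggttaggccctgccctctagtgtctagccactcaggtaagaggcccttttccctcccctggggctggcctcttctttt

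The Krt10 and Krt13 windows held 2 CG each, the Krt8 window 3 and the Krt14 window 5. Of all 32851 windows in the table, 81.2% held at least as many CG as Krt10 or Krt13, 71.0% at least as many as Krt8 and 55.6% at least as many as Krt14. The 35 windows of 34 keratin genes had a median of 4 CG with a range from 1 to 16, and the median over all windows was 6. TATAAA, searched on both strands, lay 26 bases before the Krt10 start, and it was present in 16 of the 35 keratin windows (45.7%) and in 12.4% of all windows. A match describes the letters only, and the methylation of these positions was not analysed here. Krt19, Krt80 and Krt222 are named only.

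Most keratin genes gave no signal in either kind of MEF. Of the 66 probes, 58 were above background on 0 arrays, and 42 of the 49 genes had no probe above background anywhere. At least 1 array was above background for 8 probes (12.1%), against 40.8% of all probes on the array. The 7 genes were Krt8, Krt10, Krt13, Krt14, Krt19, Krt80 and Krt222. On the Dnmt1+/+ arrays 2, 3 and 3 keratin probes were above background, and on the Dnmt1-/- arrays 5, 4 and 6. At this threshold every Dnmt1-/- array thus had more keratin probes above background than any Dnmt1+/+ array. The 6 on Dnmt1-/- replicate 3 included 2 probes of Krt80. The mean was 2.67 ± 0.577 in Dnmt1+/+ and 5 ± 1.0 in Dnmt1-/- MEFs (SD, n = 3), a difference of 2.33 probes (exact permutation test over arrays, two-sided, p = 0.1, the smallest p that 3 arrays against 3 allow). Over all probes the mean number above background differed by -89.3 (exact permutation p = 1). The detection threshold alone would pass 0.66 of 66 probes per array. At a detection p under 0.05 the difference was 4.33 probes and the groups stayed apart. At a p under 0.001 the difference was 0.667, and the counts of 1, 2 and 2 in Dnmt1+/+ against 2, 3 and 2 in Dnmt1-/- overlapped.

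**Figure D1:**
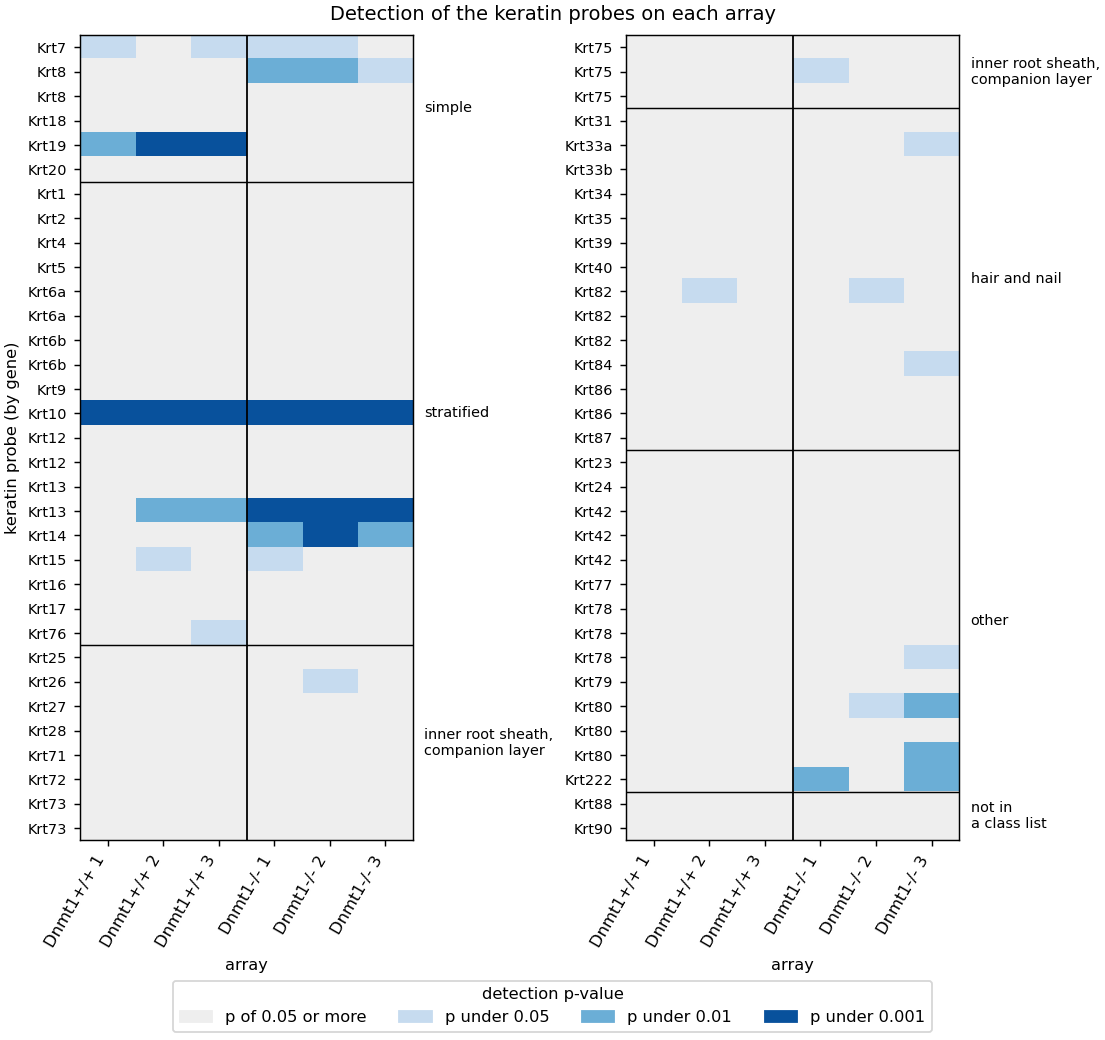
Detection p-values of the 66 keratin probes (rows, named by gene and grouped by class) on the 3 Dnmt1+/+ and 3 Dnmt1-/- arrays (columns), in 4 shades from p of 0.05 or more to p under 0.001. Krt10 has a p under 0.001 on all 6 arrays. A p under 0.01 is reached by Krt19 on the Dnmt1+/+ arrays alone and by Krt14 on the Dnmt1-/- arrays alone, and 58 rows never reach it.

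Signal by class came from few genes. Among the simple epithelial keratins, which line ducts, gut and other single-layered epithelia, 2 of 5 genes were above background (Krt8 and Krt19), and Krt7, Krt18 and Krt20 were not. Among the stratified epithelial keratins of skin and mucosa the count was 3 of 15 genes, namely Krt10, Krt13 and Krt14. Krt1, Krt2, Krt4, Krt5, Krt6a, Krt6b, Krt9, Krt12, Krt15, Krt16, Krt17 and Krt76 of that class were not above background on any array. The hair and nail keratins gave 0 of 11 genes, and the inner root sheath and companion layer keratins 0 of 8. The remaining keratins gave 2 of 8, Krt80 and Krt222, and Krt88 and Krt90, which were in no class list, gave 0. No test was made between classes, since 7 genes were too few for one and the classes were drawn up with earlier results of these data known.

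Stratified keratins held both probes that rose, and also 3 of the 4 keratin probes tested. Testing was limited to probes above background on at least 3 of the 6 arrays, whatever the group, which admitted 4 keratin probes of the 15795 tested. Of the 4, 2 rose (Krt13 and Krt14), where 8.48% of all tested probes rose, and 1 fell (Krt19), where 7.69% fell, by limma with Benjamini-Hochberg adjustment over all tested probes at an adjusted p under 0.05. Krt14 and Krt19 were admitted by the arrays of 1 group alone, and Krt13 by 2 Dnmt1+/+ and 3 Dnmt1-/- arrays. A probe admitted only by the group where it is high had to differ, so these counts, and the adjusted p-values of Krt14 and Krt19 given with their levels, are a description. In 3 of the 4 every Dnmt1-/- array was above every Dnmt1+/+ array, which held for 16.6% of all tested probes, and in 1 every Dnmt1-/- array was below, which held for 21.6%.

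Krt14, the type I partner of Krt5 in basal keratinocytes, had normalized levels of 4.32, 4.29 and 4.33 on the Dnmt1+/+ arrays and 5.17, 5.86 and 5.15 on the Dnmt1-/- arrays (log2). It was above background on 3 Dnmt1-/- arrays and on 0 Dnmt1+/+ arrays, and the groups did not overlap. The means were 4.32 ± 0.02 and 5.39 ± 0.40 (SD, n = 3), a difference of 1.08 ± 0.21 (SE) with a 95% interval from 0.58 to 1.57 and an adjusted p of 0.0129 (limma). Because it was not above background in Dnmt1+/+ MEFs, the rise is a bound of at least 1.37-fold, taken against the lowest signal above background on those arrays. Before normalization the intensities were 105, 104 and 102 against 140, 125 and 103, so Dnmt1-/- replicate 3, whose median over all probes was 94.3, stood apart only relative to its own background. The size and the call depended on the processing: the difference was 0.33 with no background correction (adjusted p = 0.0568), 0.50 with an offset of 50 (0.0473), 0.40 in the authors' processed values (0.0391) and 0.98 with median scaling (0.0975). Without the first or the second Dnmt1+/+ array the adjusted p was 0.0548 and 0.0678, or 0.0475 and 0.0596 with the probes tested kept the same.

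Krt13, the type I keratin of suprabasal mucosa, had normalized levels of 4.33, 4.94 and 5.10 in Dnmt1+/+ and 5.54, 5.58 and 6.06 in Dnmt1-/- MEFs (log2). All 3 Dnmt1-/- arrays and 2 of 3 Dnmt1+/+ arrays were above background, and the first Dnmt1+/+ array was the low one. The means were 4.79 ± 0.41 and 5.73 ± 0.29 (SD, n = 3), and the probe rose by 0.94 ± 0.25 (SE; 95% interval 0.37 to 1.51; limma, adjusted p = 0.0365). Since 1 Dnmt1+/+ array was at background, 1.64-fold is a bound on the difference of the means only, without the spread between arrays. Raw intensities were 105, 120 and 121 against 158, 119 and 119 and overlapped. The difference was 0.30 with no background correction (adjusted p = 0.0938), 0.49 with an offset of 50 (0.0591), 0.35 in the authors' processed values (0.0741) and 0.78 with median scaling (0.203), and with no detection filter the adjusted p was 0.119, so the call was lost under each of these. It was also lost without the first or second Dnmt1+/+ array (adjusted p = 0.117 and 0.104) and without Dnmt1-/- replicate 2 or 3 (0.0564 and 0.132). A second Krt13 probe was not above background on any array.

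Krt19, a type I keratin of simple epithelia and ducts, ran the other way. Its levels were 5.26, 5.56 and 5.35 in Dnmt1+/+ and 4.33, 4.66 and 4.31 in Dnmt1-/- MEFs (log2), above background on 3 and 0 arrays with no overlap. The means of 5.39 ± 0.15 and 4.43 ± 0.19 (SD, n = 3) differed by -0.96 ± 0.17 (SE; 95% interval -1.35 to -0.56; limma, adjusted p = 0.00849), a fall of at least 1.34-fold. Raw intensities of 126, 139 and 128 against 109, 104 and 91.7 were also apart. The difference was -0.28 with no background correction (adjusted p = 0.0563), -0.45 with an offset of 50 (0.0351), -0.35 in the authors' processed values (0.0356) and -1.01 with median scaling (0.0787). Without the second Dnmt1+/+ array, and with the probes tested kept the same, the adjusted p was 0.0528.

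Krt10, the type I keratin of differentiating epidermis, was the only keratin above background on all 6 arrays. Its levels were 7.75, 7.59 and 7.42 in Dnmt1+/+ and 8.13, 7.95 and 8.0 in Dnmt1-/- MEFs (log2). Every Dnmt1-/- array was the higher, but the difference of 0.44 ± 0.16 (SE; 95% interval 0.07 to 0.80), or 1.35-fold, did not pass (limma, adjusted p = 0.103), and it was 0.11 with median scaling. Raw intensities were 321, 301 and 262 against 505, 254 and 223, so that before normalization 2 of the Dnmt1-/- arrays were below all Dnmt1+/+ arrays.

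**Figure D2:**
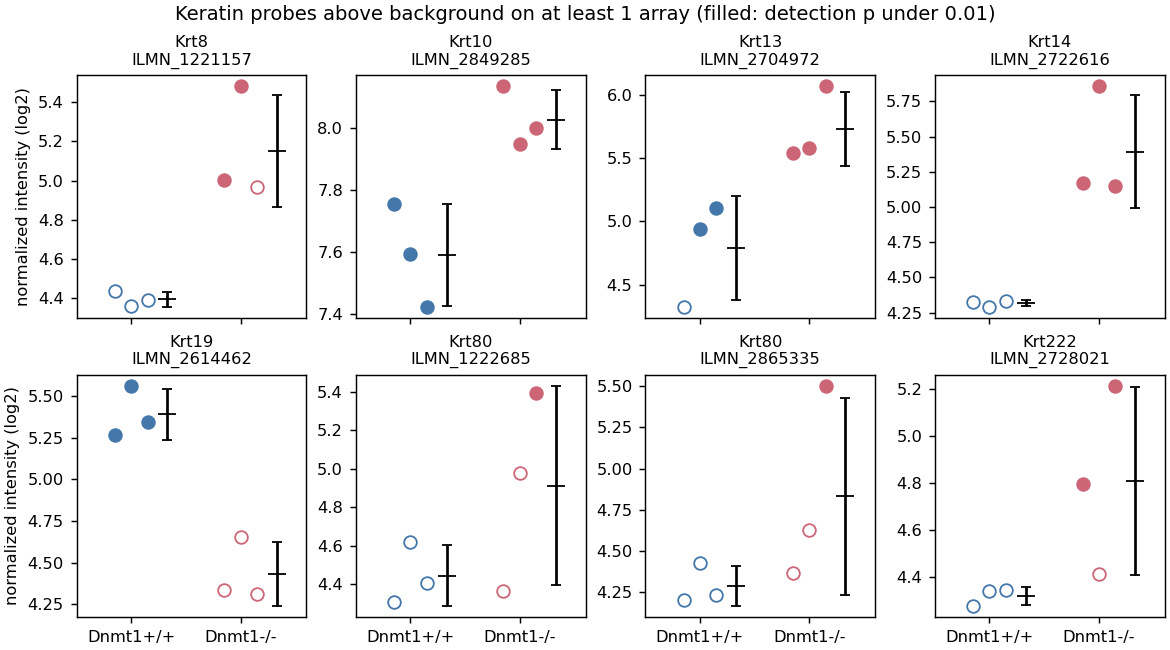
Normalized intensity (log2) of the 8 keratin probes above background on at least 1 array, each point an array, filled where the detection p was under 0.01; bars give the mean and SD of 3 arrays, and the scales differ between panels. Krt19 is filled only in Dnmt1+/+, Krt14 only in Dnmt1-/-, and Krt10 stands highest with all 6 points filled.

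The other 4 probes were above background on 1 or 2 Dnmt1-/- arrays and on 0 Dnmt1+/+ arrays, a pattern that 4 of 66 keratin probes (6.06%) and 3.09% of all probes showed. Presence on all 3 Dnmt1-/- and 0 Dnmt1+/+ arrays was seen for 1 of 66 (1.52%, Krt14) and 0.819% of all probes, and the reverse for 1 of 66 (1.52%, Krt19) and 0.755%. These shares rest on so few probes that no difference from the array as a whole is read from them.

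Krt8, the type II keratin of simple epithelia, had levels of 4.44, 4.36 and 4.39 in Dnmt1+/+ and 5.0, 5.48 and 4.97 in Dnmt1-/- MEFs (log2), above background on the first 2 Dnmt1-/- arrays. All normalized Dnmt1-/- values were above all Dnmt1+/+ values, by 0.75 on average, a separation that 16.6% of all tested probes showed. Raw intensities were 108, 106 and 104 against 134, 117 and 101 and overlapped, with Dnmt1-/- replicate 3 the lowest. The probe was not tested because it was above background on too few arrays. With no detection filter its limma adjusted p was 0.0534, and with a filter at a detection p under 0.05 it entered the test and passed (adjusted p = 0.0285). That filter admitted it by the Dnmt1-/- arrays alone, where it was high, so the pass is a description. A second Krt8 probe was above background on 0 arrays and differed by -0.13.

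Krt80, a type II keratin of several epithelia, had 3 probes. A first gave 4.31, 4.62 and 4.40 in Dnmt1+/+ and 4.36, 4.98 and 5.40 in Dnmt1-/- MEFs, and a second 4.2, 4.43 and 4.24 against 4.36, 4.63 and 5.50 (log2). Both were above background on Dnmt1-/- replicate 3 alone and their groups overlapped. The third Krt80 probe was above background on 0 arrays and differed by 0.08. Krt222, a keratin-like gene at the edge of the type I cluster, gave 4.28, 4.34 and 4.34 against 4.79, 4.41 and 5.21 and was above background on Dnmt1-/- replicates 1 and 3. Replicate 3 supplied every Krt80 detection, and it had the lowest mean raw intensity of the 6 (217); the part of that in these detections was not tested.

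Over all 66 keratin probes the median log2 difference was 0.012, with 35 higher and 31 lower in Dnmt1-/- MEFs, against a median of -0.005 over all probes on the array. By class the median was -0.092 for simple, -0.017 for stratified, 0.027 for inner root sheath and companion layer, 0.012 for hair and nail and 0.064 for other keratins. The 58 probes not above background on any array differed by -0.287 to 0.278, with raw intensities from 92.3 to 116.9 in Dnmt1+/+ and from 82.7 to 122.9 in Dnmt1-/- MEFs. These 58 probes were not told apart from the background of each array, and no order is read from their differences. The raw range itself does not mark background, since Krt14 on Dnmt1-/- replicate 3 was above background at 103.

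**Figure D3:**
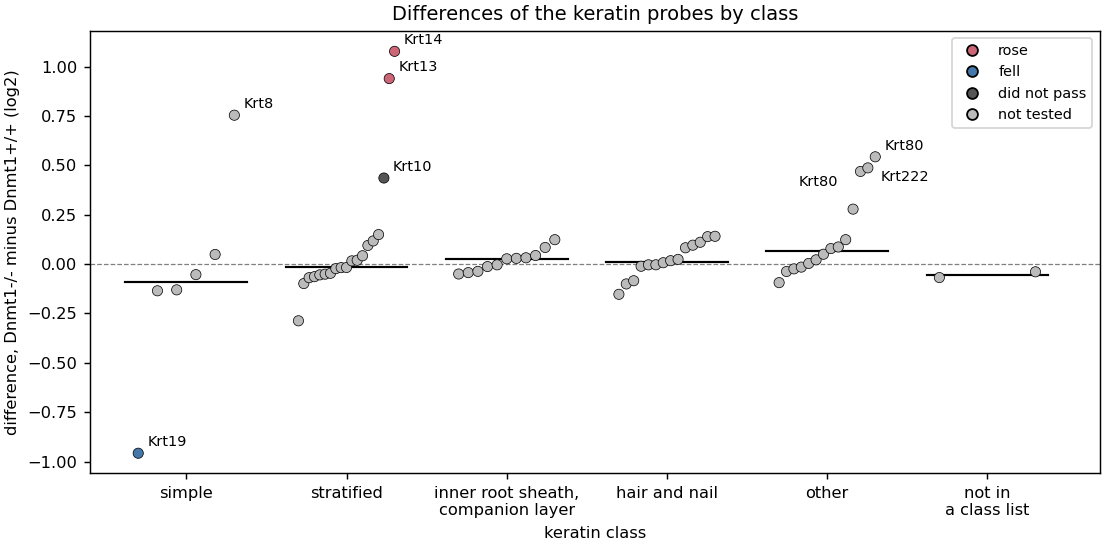
Difference in normalized log2 intensity, Dnmt1-/- minus Dnmt1+/+, of the 66 keratin probes by class, each point a probe coloured by its call and each line the class median. Krt13 and Krt14 lie near 1 and Krt19 near -1, and the class medians lie between -0.092 and 0.064.

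Partner keratins were not seen together. Krt8 was above background on 2 arrays and Krt18 on 0. Krt14 was on 3 arrays and Krt5 on 0, Krt10 on 6 and Krt1 on 0, and Krt13 on 5 and Krt4, its mucosal partner, on 0. Krt6a and Krt16, of wound-edge epidermis, were both on 0. By type, the Dnmt1+/+ arrays held 2, 3 and 3 type I and 0 type II probes above background, and the Dnmt1-/- arrays 3 type I each and 1, 1 and 2 type II. An undetected partner means only that its probe was not above background at this signal.

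All 4 tested keratins lie in the type I cluster on chromosome 11. In RefSeq order (GRCm38.p6) Krt13, Krt15, Krt19, Krt9 and Krt14 follow each other, and the genes between those called, Krt15 and Krt9, were above background on 0 arrays. The order therefore runs risen, unseen, fallen, unseen and risen. Krt14, Krt16 and Krt17 are close in sequence, as are Krt6a and Krt6b, and probes of such genes can share signal. Probe positions were not used here.

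**Figure D4:**
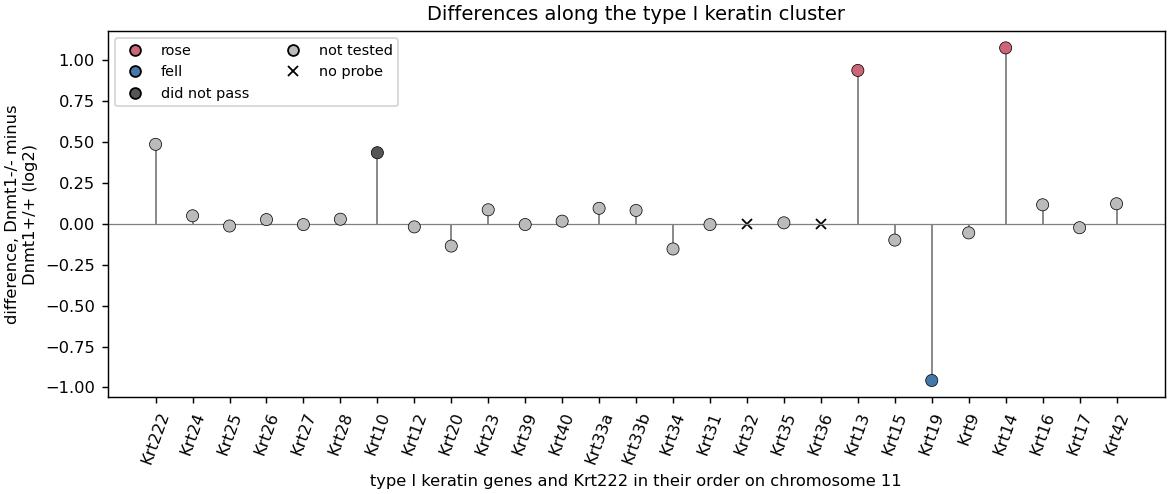
Difference in normalized log2 intensity, Dnmt1-/- minus Dnmt1+/+, for the chromosome 11 keratin genes in their RefSeq order (crosses have no probe). Each gene has 1 probe, a tested one first, then that above background on most arrays, then the first by name. Krt13 and Krt14 point up and Krt19, which lies between them, points down, and the genes next to them stay near 0.

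Genes that act with keratins gave no call. Of the other intermediate filament genes, 5 were tested and 0 rose or fell by limma, with 0 at an unadjusted p under 0.05. Vim was 13.48 ± 0.03 in Dnmt1+/+ and 13.26 ± 0.20 in Dnmt1-/- MEFs (log2, SD, n = 3), a difference of -0.22 ± 0.16 (SE; adjusted p = 0.386), and Nes, Lmna, Lmnb1 and Lmnb2 differed by -0.01 to 0.36. Of the desmosome and hemidesmosome genes, which tie keratins to the membrane, 7 were tested and 0 passed (3 at an unadjusted p under 0.05). The nearest was the plakophilin Pkp4 at -0.69 ± 0.20 (SE; limma, adjusted p = 0.0511).

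Genes of epithelial identity and of the keratinocyte envelope also gave no call. Of the former 28 had a probe, 8 were above background and 4 were tested, with 0 passing and 2 at an unadjusted p under 0.05 (limma). Klf5, a transcription factor of epithelial progenitors, differed by 1.43 ± 0.48 (SE; adjusted p = 0.0778), Klf4 by -0.48, Ovol2 by -0.18 and Cldn7 by 0.13. Trp63, the regulator of stratified epithelia that drives Krt14 and Krt5, was above background on 1 Dnmt1-/- array. Of the envelope genes Sprr1a differed by 1.27 ± 0.42 (SE; adjusted p = 0.0773) and Lor by -0.10, with 0 of 2 passing and 1 at an unadjusted p under 0.05. The background for genes was 838 risen and 682 fallen of 8716 tested, with 2943 at an unadjusted p under 0.05.

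**Figure D5:**
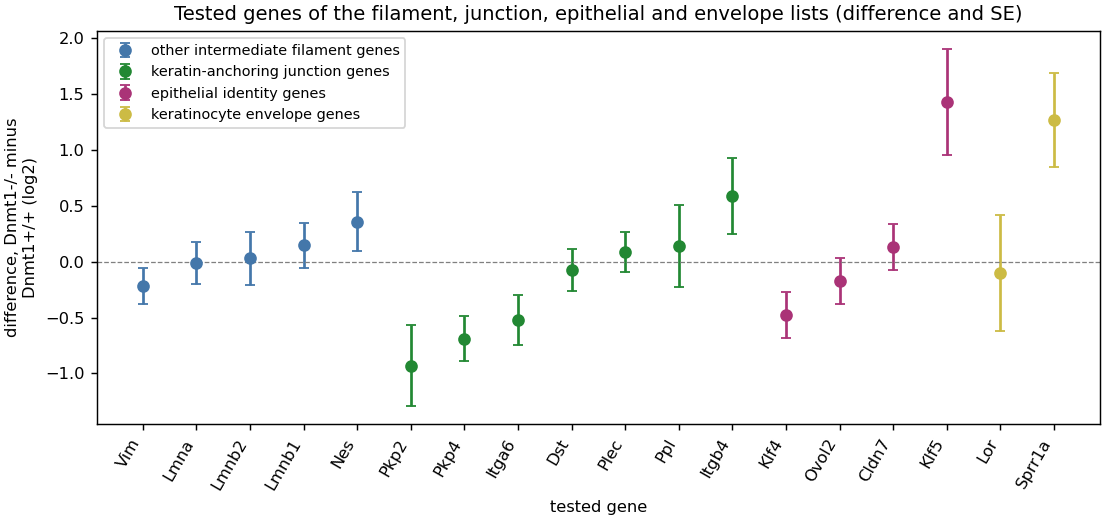
Difference in normalized log2 intensity, Dnmt1-/- minus Dnmt1+/+, with its SE, of each tested gene of 4 lists (3 arrays a group). Klf5 at 1.43 and Sprr1a at 1.27 are the highest, Pkp2 at -0.93 is the lowest, and none of the 18 passed the adjusted threshold.

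Of the mesothelial, trophoblast and extraembryonic endoderm markers, cell types that can make keratins, Msln, Psg23, Prl2c2 and Gata6 rose and the others did not pass or were not tested. Msln, a surface protein of mesothelium, rose at least 17.4-fold (limma, adjusted p = 1.4e-05; above background on 2 of 3 Dnmt1+/+ arrays), and Upk3b, Upk1b, Lrrn4 and Gpm6a were on 0 arrays, with Msln the 1 of 5 mesothelial markers above background. The summed linear level of the mesothelial list was 103 to 118 in Dnmt1+/+ and 639 to 718 in Dnmt1-/- MEFs. The difference of these sums was largely that of Msln. Of 9 trophoblast markers 4 were above background, and 2 rose: Psg23, a pregnancy-specific glycoprotein, 131-fold and Prl2c2, a proliferin, 4.62-fold. Plac1 differed by 1.15 (adjusted p = 0.0586, limma) and Gata3 by -0.27 (0.25) on the log2 scale, and Tfap2c, Eomes, Cdx2, Hand1 and Ascl2 were on 0 arrays. The trophoblast sum was 1424 to 3239 against 13679 to 14996, a difference largely of Psg23 and Prl2c2. Of 8 extraembryonic endoderm markers 4 were above background and Gata6 rose 1.99-fold. Apoa2 differed by -0.42 and Hnf4a by -0.19 on the log2 scale and did not pass. Sox17, Afp, Apoa1 and Ttr were on 0 arrays. The endoderm sums were 325 to 343 against 431 to 537, a difference largely of Gata6.

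Fibroblast markers were above background for 10 of 11 genes. S100a4 rose 2.98-fold, Loxl1 fell 2.00-fold and Thy1 fell at least 2.11-fold, and the sums were 5173 to 10261 in Dnmt1+/+ and 3947 to 8256 in Dnmt1-/- MEFs. Blood, endothelial and muscle lists had 3 of 7, 1 of 6 and 3 of 5 genes above background. Cd53 and Cd14 of the blood list rose (at least 1.30-fold and 1.97-fold), while Ptprc was on 0 arrays. The limma adjusted p-values of these marker calls were at most 0.0301, and with no detection filter those of S100a4 (0.138), Loxl1 (0.0773) and Cd53 (0.0562) no longer passed. Thy1 and Cd53 were admitted to the test only by the arrays of the group where each was high, so their calls are a description. The summed epithelial identity list was 853 to 1114 in Dnmt1+/+ and 1095 to 2097 in Dnmt1-/- MEFs. The difference of these sums was largely that of Klf5, the brightest member, which did not pass. Its levels were 8.74, 8.79 and 7.56 in Dnmt1+/+ and 8.80, 10.52 and 10.06 in Dnmt1-/- MEFs (log2). The part of any of these cell types in the Krt8, Krt13, Krt14 and Krt19 differences was not tested.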

How the data were processed

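Total RNA of 3 Dnmt1+/+ and 3 Dnmt1-/- MEF samples was hybridised to Illumina BeadChips. The authors deposited a table of raw intensity per probe and array, which holds a detection p-value beside each intensity. They also deposited processed intensity values on a linear scale, made per the submitters' processing notes and the study's methods using lumi, whose version is not given, through background subtraction, variance stabilisation and robust spline normalization. These served as an alternative. No probe is a read count, so the number of arrays limits the precision.

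Raw intensities were background-corrected and quantile-normalized with neqc (limma 3.58.1, R 4.3.3) with an offset of 16, which compresses differences of dim probes. A probe was tested if at least 3 of the 6 arrays had it at a detection p under 0.01 (15795 of 45281, 34.9%) by lmFit and eBayes and Benjamini-Hochberg adjustment. For a gene with several tested probes, the brightest on average stood for it. Folds against a group not above background are bounds, set against the mean of the lowest normalized signal above background on each dim array, or of the probe's own where higher. They bound the difference of the means and take no account of the spread between arrays. Summed levels are sums of normalized linear intensity over a list's genes. The 95% intervals come from the limma fit. The script was tested on simulated data.

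Values were given for Dnmt1, for every keratin above background on any array, for Vim, and from each other list for up to 4 genes with the largest changes among those that passed, and for all tested genes of lists with 6 or fewer; Col1a1, Pkp4, Pkp2, Trp63 and the absent markers were named after their values were seen. The members, classes and lists were chosen with earlier results of these data known. Alternatives were no background correction, offset 50, median scaling, cyclic loess, the authors' values, other detection filters, a replicate block and leaving out each array. The deviations of same-numbered arrays correlated at r = -0.229, 0.335 and -0.14 for replicates 1, 2 and 3. All pairings of a Dnmt1+/+ with a Dnmt1-/- array ran from -0.442 to 0.433. The numbers were not taken as pairs.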

Additional observations from a re-analysis of the deposited data

How the results depend on the processing

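The keratin calls lay near the detection limit and depended on the processing. No direction turned for Krt10, Krt13, Krt14 or Krt19 under any alternative run. Of the 2 keratin probes that rose and 1 that fell, 0 and 0 passed with no background correction, with median scaling and with detection required on all 6 arrays, where only Krt10 was left to test. With offset 50, the authors' values or no detection filter 1 rose (Krt14) and 1 fell (Krt19). Median scaling moved the median of all tested probes from -0.08 to -0.36, and relative to it Krt13 differed by 1.13, Krt14 by 1.33 and Krt19 by -0.65. Over all probes 1339 rose and 1214 fell, against 445 and 656 with median scaling, 719 and 663 with detection on all arrays, and 945 and 691 with a replicate block. With the replicate block 2 keratin probes rose and 1 fell. The difference in keratin probes above background moved from 2.33 to 4.33 at a detection p under 0.05 and to 0.667 at a p under 0.001.

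Leaving out 1 array at a time gave 0 to 2 keratin probes that rose and 0 to 1 that fell, 416 to 1159 of all probes that rose and 241 to 1101 that fell, and 1.83 to 2.83 more keratin probes above background. The filter then drops Krt14 when a Dnmt1-/- array is left out and Krt19 when a Dnmt1+/+ array is. With the same probes tested, an alternative chosen after seeing the data, Krt14 had adjusted p-values from 0.0149 to 0.0596, Krt19 from 0.00912 to 0.0528 and Krt13 from 0.0363 to 0.122. The cause of these moves was not tested.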

Other observations

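Over the 6 arrays the tested genes, other than keratins, whose normalized log2 levels correlated most with Krt13 were Trap1 (Pearson r = 0.9987), Ptdss2 (0.9985), Ubac2 (0.9962), Rmnd1 (0.9911) and Gnb2 (0.988). These points share the array and the group, and the values are a description chosen from all tested genes.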
